A study of Mus musculus with 50 samples.

Results

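The synaptic vesicle and SNARE genes were taken by symbol from the array's probe-to-gene table. They were the genes whose symbol starts with Syt, Stx (Stxbp included), Vamp, Snap, Cplx, Rab3, Sv2, Syp, Napa, Napb or Napg, or is Syn1, Syn2, Syn3, Nsf or Unc13a. The rule found 58 of the 8251 genes that have a probe set with a single symbol. They were read by 75 probe sets, and where a gene had several, the one brightest on average over the 50 arrays stands for it. A filter on dim probe sets, set on the mean over all arrays, left 52 genes to test. The other 6 lay below it: the synaptotagmins Syt6, Syt8, Syt9 and Syt10, the SNARE Vamp5 and the GTPase Rab35. The measured genes included 13 of the core release machinery: Snap25, Stx1a, Vamp1, Vamp2, Nsf, Napa, Napb, Syt1, Syn2, Syp, Rab3a, Cplx1 and Cplx2. The letters of the rule also took in 7 genes of another function, Rab31, Rab33a, Rab33b, Rab34, Rab35, Snapc2 and Snapc3.

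Neurons store transmitter in vesicles and release it when a vesicle fuses with the presynaptic membrane. Fusion is driven by SNARE proteins: a vesicle protein of the VAMP family pairs with syntaxin and SNAP-25 of the plasma membrane. Complexins bind the assembled complex, synaptotagmins sense the calcium that triggers fusion, NSF and its adaptors take spent complexes apart, and Rab3 and synapsins act on the supply of vesicles. Other SNAREs serve the Golgi, endosomes and the surface of many kinds of cell.

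The arrays came from mice aged 8 weeks, of 3 genotypes. S1P2-KO mice (10 arrays per tissue, 5 male and 5 female) lack one of the receptors that bind sphingosine 1-phosphate, a signalling lipid, and have sporadic seizures between 4 and 7 weeks of age. S1P3-KO mice (5 arrays per tissue, 2 male and 3 female) lack a related receptor and have no such seizures, and wild-type mice (10 arrays per tissue, 5 male and 5 female) are the controls. Hippocampus and neocortex were each measured in all 3 genotypes. Strain and construction of the alleles are not given in the sources used here, and the labels call the replicates biological without naming animals. Each tissue is a mixture of cells, so fewer cells of a type and less RNA per cell cannot be told apart in any value given here.

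The group sizes followed the sample titles, since the series text names S1P2 where S1P3 would stand. The signal of S1pr2, the gene of S1P2, was 542 ± 144 in S1P2-KO hippocampus and 649 ± 173 in wild-type hippocampus (SD, n = 10 each), which differed on the log2 scale by -0.24 ± 0.16 (SE, limma adjusted p = 0.925). In neocortex it differed by -0.10 ± 0.14 (limma adjusted p = 0.874). S1pr3, the gene of S1P3, was at 495 ± 42.7 in S1P3-KO hippocampus (n = 5) and 827 ± 204 in wild-type hippocampus (n = 10), and differed by -0.69 ± 0.18 (limma adjusted p = 0.164), and in neocortex it differed by -0.26 ± 0.17 (limma adjusted p = 0.638). Whether these probe sets lie in the deleted parts is not given in the sources used here, so the genotypes rest on the labels. All 5 measured hippocampal markers were higher in wild-type hippocampus than in neocortex and all 6 measured neocortical markers lower (limma), with median log2 differences of 2.18 and -1.86.

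Of the 50 arrays 3 had a high ratio of 3' to 5' signal, taken on the log2 scale and averaged over the Gapdh and beta-actin control probe sets, a measure that is high in degraded RNA. It was 4.46 on S1P3-KO hippocampus replicate 5, 1.37 on S1P2-KO hippocampus replicate 7 and 1.2 on wild-type hippocampus replicate 4, and at most 0.75 on the others. Replicate 5 of S1P3-KO hippocampus gave the lowest of 25 hippocampus values for 18 of the 52 genes (34.6%, beside 18.7% of the 6350 genes tested) and the highest for 11 (21.2%, beside 21.9%). Hippocampus calls and counts of the 52 genes that changed without that array are given with and without it. Those of markers and of other genes are with all arrays unless stated.

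Hippocampus and neocortex differed in a small group of these genes. Stx1a, the syntaxin of the presynaptic membrane, and Snap25, its plasma membrane partner, were lower in wild-type hippocampus, as was Rab33a, a Golgi-linked Rab. Rab3ip, an exchange factor for Rab8, and Syt17, a synaptotagmin relative, were higher. In wild-type mice 2 of 52 genes were higher in hippocampus and 6 lower (limma, adjusted p under 0.05), or 15.4%. Of all 8534 probe sets tested 14.6% passed, 7.83% higher and 6.74% lower, so the share of these genes was near the background. In S1P2-KO mice 4 were higher and 5 lower (17.3%, beside 14.7% of all probe sets, 7.62% higher and 7.09% lower), and in S1P3-KO mice 3 were higher and 6 lower (17.3%, beside 12%, 5.99% higher and 6% lower). Counted by gene, as the 52 are, 993 of 6350 genes passed in wild-type, 1000 in S1P2-KO and 822 in S1P3-KO mice. Without S1P3-KO hippocampus replicate 5, 6 were higher and 8 lower in S1P2-KO mice (26.9%, beside 17.1%), 3 higher and 4 lower in S1P3-KO mice (13.5%, beside 7.92%) and 4 higher and 9 lower in wild-type mice (25%, beside 17.1%). The median log2 difference over the 52 genes was -0.05 in S1P2-KO, -0.01 in S1P3-KO and -0.04 in wild-type mice, beside 0.02, 0.01 and 0.01 over all genes.

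**Figure D1:**
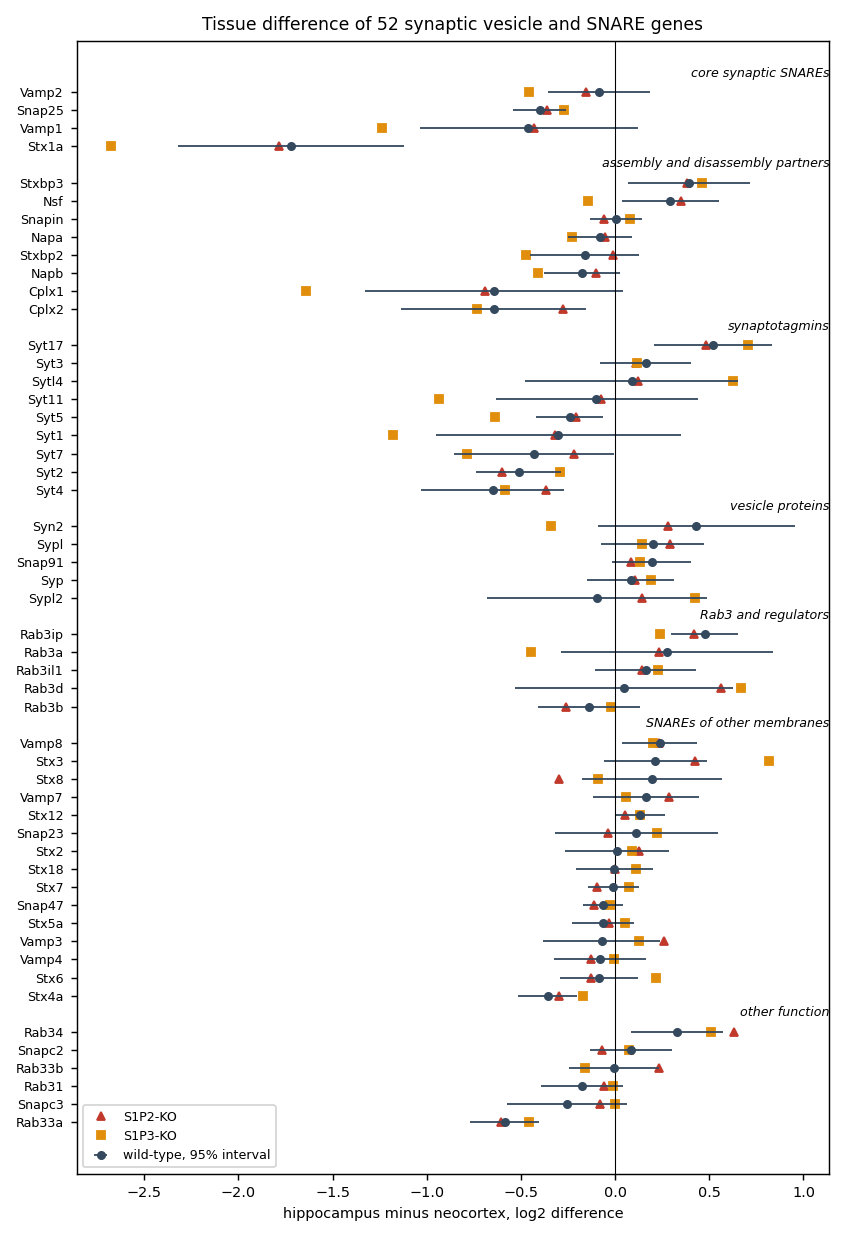
Log2 difference of signal, hippocampus minus neocortex (horizontal axis), for the 52 measured genes grouped by role, in S1P2-KO (triangles), S1P3-KO (squares) and wild-type mice (circles, with 95% intervals). Stx1a lies furthest left, at -1.78 in S1P2-KO, -2.68 in S1P3-KO and -1.72 in wild-type mice.

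Of the 52 genes 14 passed in at least 1 genotype, all with the same sign in the 3 genotypes, and Stx1a, Rab33a and Syt17 passed in all 3. Without S1P3-KO hippocampus replicate 5 the number was 16, again with the same signs throughout, and those that passed in all 3 genotypes were Snap25, Stx1a, Rab33a, Syt5 and Syn2. No such counts over all genes stand beside these, so the agreement between genotypes is not shown to be particular to these genes. Among wild-type arrays 1 gene lay in hippocampus wholly above its neocortex range (Rab3ip) and 1 wholly below (Stx1a), beside 2.19% and 1.8% of the 6350 genes. Among S1P2-KO arrays Stx1a, Cplx1, Rab33a and Snap25 lay wholly below (1.92% of genes did) and 0 wholly above (1.87%). Among S1P3-KO arrays Stx1a and Cplx1 lay wholly below (3.48% of genes) and 0 wholly above (3.78%). Without S1P3-KO hippocampus replicate 5 Stx1a, Cplx1 and Snap25 lay wholly below (4.49% of genes) and Rab3ip and Syn2 wholly above (4.91%).

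The core synaptic SNAREs were Stx1a, Snap25 and the vesicle SNAREs Vamp1 and Vamp2. The signal of Stx1a ran from 1693 to 3107 in wild-type hippocampus (median 2672), against 7582 to 9403 in wild-type neocortex (median 8503, n = 10 each). Every hippocampus array lay below every neocortex array, and the neocortex mean was 3.28 times the hippocampus mean. The log2 difference was -1.72 ± 0.30 (SE, limma adjusted p = 1.73e-05). In S1P2-KO mice Stx1a ran from 2128 to 3118 in hippocampus and from 8270 to 9457 in neocortex, a difference of -1.78 ± 0.30 (limma adjusted p = 8.86e-06). S1P3-KO hippocampus gave 2102.6, 3068.2, 2579.0, 2988.6 and 52.9, against 9629.7, 8098.3, 8126.2, 9243.6 and 8600.0 in S1P3-KO neocortex. The groups were apart here too, and the last hippocampus value is that of replicate 5. The S1P3-KO difference was -2.68 ± 0.42 (limma adjusted p = 5.94e-06) with that array and -1.70 ± 0.12 (adjusted p = 9.89e-16) without it. In wild-type mice, leaving out that array kept the difference at -1.72 and gave a standard error of 0.08, since all arrays share 1 estimate of the spread.

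The promoters of 4 genes of these results are shown to set genes lower in hippocampus (Stx1a and, without replicate 5, Cplx1) beside genes higher there (Rab3ip and, without replicate 5, Syn2). The sequences are from RefSeq on GRCm38.p6 and run 5′ to 3′ along each gene, from 250 bases before the annotated start to 50 after. They lie at chr5:135023232-135023531 (plus strand) for Stx1a, chr5:108549978-108550277 (minus strand) for Cplx1, chr10:116950404-116950703 (minus strand) for Rab3ip and chr6:115134652-115134951 (plus strand) for the first of the Syn2 starts. Capitals mark the GC box, GGGCGG on either strand.
Stx1a: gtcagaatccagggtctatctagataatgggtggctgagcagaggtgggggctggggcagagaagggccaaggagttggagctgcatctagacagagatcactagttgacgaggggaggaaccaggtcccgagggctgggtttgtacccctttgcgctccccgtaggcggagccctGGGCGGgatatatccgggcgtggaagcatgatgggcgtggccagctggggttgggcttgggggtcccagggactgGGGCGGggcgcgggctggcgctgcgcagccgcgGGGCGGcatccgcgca
Cplx1: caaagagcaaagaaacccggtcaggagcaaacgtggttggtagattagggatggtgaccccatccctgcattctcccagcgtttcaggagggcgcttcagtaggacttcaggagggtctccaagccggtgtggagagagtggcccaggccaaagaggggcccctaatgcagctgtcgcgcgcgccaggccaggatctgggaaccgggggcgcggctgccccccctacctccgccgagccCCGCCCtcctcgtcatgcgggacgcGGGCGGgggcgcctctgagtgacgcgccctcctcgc
Rab3ip: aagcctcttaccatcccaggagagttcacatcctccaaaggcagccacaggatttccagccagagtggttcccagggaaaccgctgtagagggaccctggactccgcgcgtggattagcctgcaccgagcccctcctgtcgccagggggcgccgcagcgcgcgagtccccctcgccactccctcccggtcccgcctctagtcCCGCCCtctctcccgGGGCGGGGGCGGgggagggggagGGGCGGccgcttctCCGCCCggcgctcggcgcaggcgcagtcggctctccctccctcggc
Syn2: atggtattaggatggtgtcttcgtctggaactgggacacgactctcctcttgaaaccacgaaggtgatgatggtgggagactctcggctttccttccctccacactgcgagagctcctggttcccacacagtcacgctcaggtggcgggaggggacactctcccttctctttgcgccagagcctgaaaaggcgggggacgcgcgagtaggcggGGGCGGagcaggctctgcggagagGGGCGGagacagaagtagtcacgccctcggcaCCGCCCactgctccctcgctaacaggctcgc
The GC box matched 3 times for Stx1a, 2 times for Cplx1, 5 times for Rab3ip and 3 times in the Syn2 promoter shown. The second Syn2 promoter of the table held no GC box and 2 CCAAT matches. It stood in 67.2% of 67 promoters of 49 of these genes and in 35.7% of all 32851 promoters of the table. CCAAT stood in 29.9% of their promoters and 37.4% of all, TATAAA in 4.48% and 13.6%, and the cyclic AMP response element TGACGTCA in 2.99% and 1.79%, on either strand, and no motif contains another. These are matches of letters and describe the windows only.

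Snap25 ran from 32531 to 45153 in wild-type hippocampus (median 39748) and from 43154 to 60810 in wild-type neocortex (median 54331). The ranges overlapped at their ends, and the difference was -0.40 ± 0.07 (limma adjusted p = 1.66e-05). In S1P2-KO mice it ran from 32028 to 42123 in hippocampus and from 43569 to 53525 in neocortex, without overlap (-0.36 ± 0.07, limma adjusted p = 9.31e-05). S1P3-KO hippocampus gave 35854.3, 37679.4, 39292.7, 39893.1 and 46244.4, and S1P3-KO neocortex 55075.8, 41890.7, 46917.5, 53079.9 and 43674.4. The highest hippocampus value is from replicate 5. The S1P3-KO difference was -0.27 ± 0.10 with it (limma adjusted p = 0.0626) and -0.33 ± 0.10 without it (adjusted p = 0.0288).

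Vamp2, the main vesicle SNARE of forebrain synapses, ran from 15206 to 23356 in wild-type hippocampus and from 19999 to 24060 in wild-type neocortex. Its difference of -0.08 ± 0.14 did not pass (limma adjusted p = 0.751), with a 95% interval of -0.36 to 0.19. Vamp1, its close relative, was at 807 ± 369 in hippocampus and 1052 ± 177 in neocortex of wild-type mice, and did not pass (-0.46, limma adjusted p = 0.324). It passed in S1P3-KO mice at -1.24 ± 0.41 (limma adjusted p = 0.0379) but not without replicate 5, on which it read 20.4 (-0.46, adjusted p = 0.362). A second Vamp1 probe set differed by 0.10 in wild-type mice (limma adjusted p = 0.851).

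**Figure D2:**
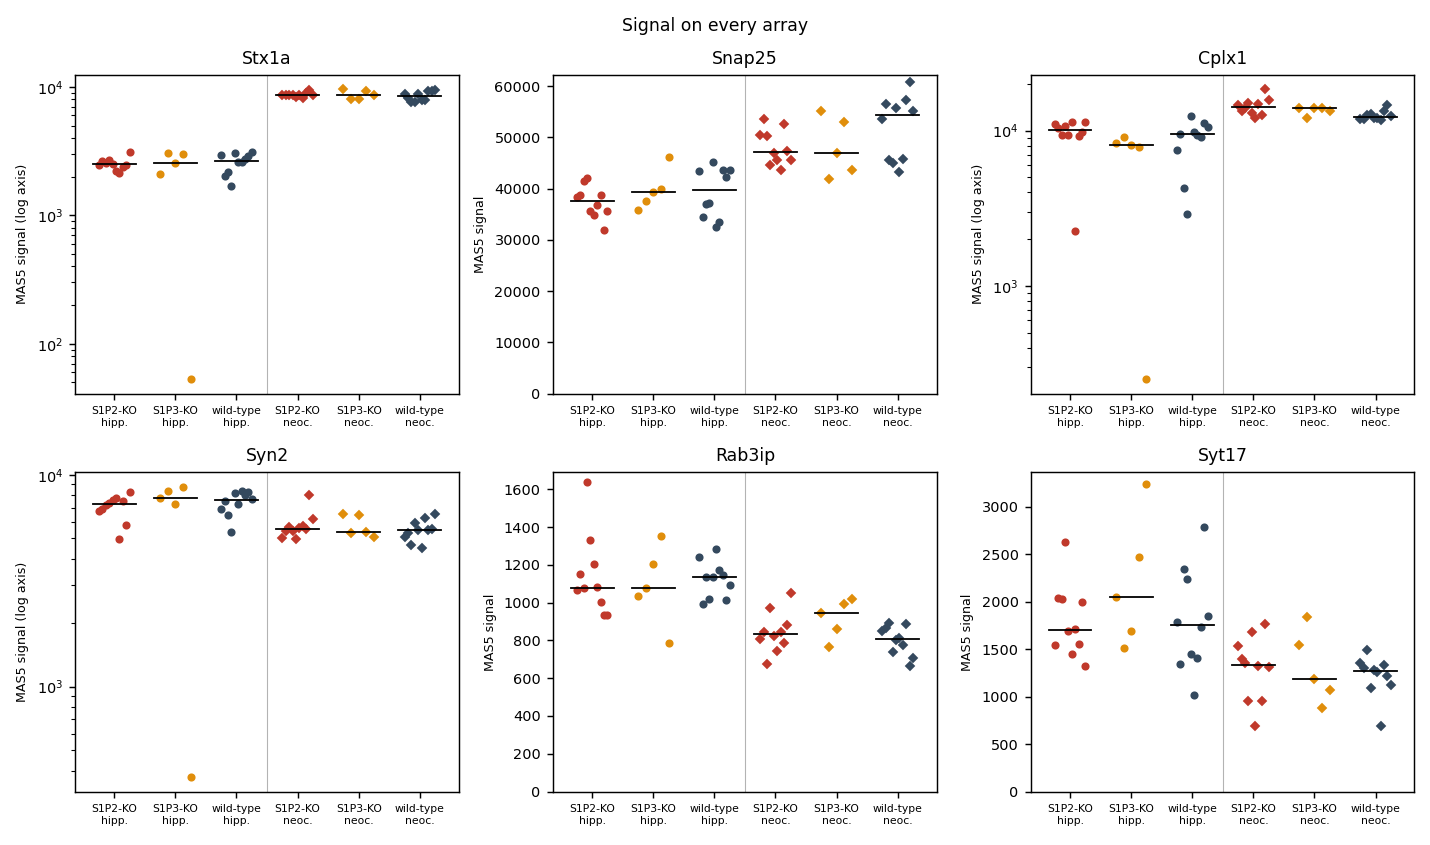
Signal (vertical axes, log for Stx1a, Cplx1 and Syn2, linear from 0 for Snap25, Rab3ip and Syt17) on every array, by genotype in hippocampus and then neocortex, with a line at each group median. The lowest points of Stx1a, Cplx1 and Syn2, at 52.9, 250.7 and 374.0, are all S1P3-KO hippocampus replicate 5.

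Of the 8 partners that assemble and disassemble the complex, 0 passed in S1P2-KO or wild-type mice and 2 were lower in hippocampus than in neocortex of S1P3-KO mice, Cplx1 and Napb. Cplx1, a complexin, ran from 2899 to 12418 in wild-type hippocampus (median 9449) and from 11753 to 14667 in wild-type neocortex (median 12290), a difference of -0.64 ± 0.34 (limma adjusted p = 0.226). Its 4 lowest hippocampus values sat on the 4 arrays of highest 3' to 5' ratio. They were 251 on S1P3-KO replicate 5 (ratio 4.46), 2256 on S1P2-KO replicate 7 (1.37), 2899 on wild-type replicate 4 (1.2) and 4289 on wild-type replicate 3 (0.75). The other 21 hippocampus arrays, with ratios up to 0.52, ran from 7460 to 12418, and the part of RNA quality in the difference was not tested. Without the 3 arrays of a ratio above 1, Cplx1 was lower in hippocampus in each genotype, with differences of -0.47 in S1P2-KO, -0.69 in S1P3-KO and -0.49 in wild-type mice (limma adjusted p = 0.000462, 0.000798 and 0.000254). With all arrays the S1P3-KO difference was -1.64 ± 0.48 (limma adjusted p = 0.018). Without replicate 5 alone that call was lost, at -0.69 ± 0.29 (adjusted p = 0.163), while Cplx1 passed in S1P2-KO (-0.69 ± 0.19, adjusted p = 0.00773) and wild-type mice (-0.64 ± 0.19, adjusted p = 0.0144).

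**Figure D3:**
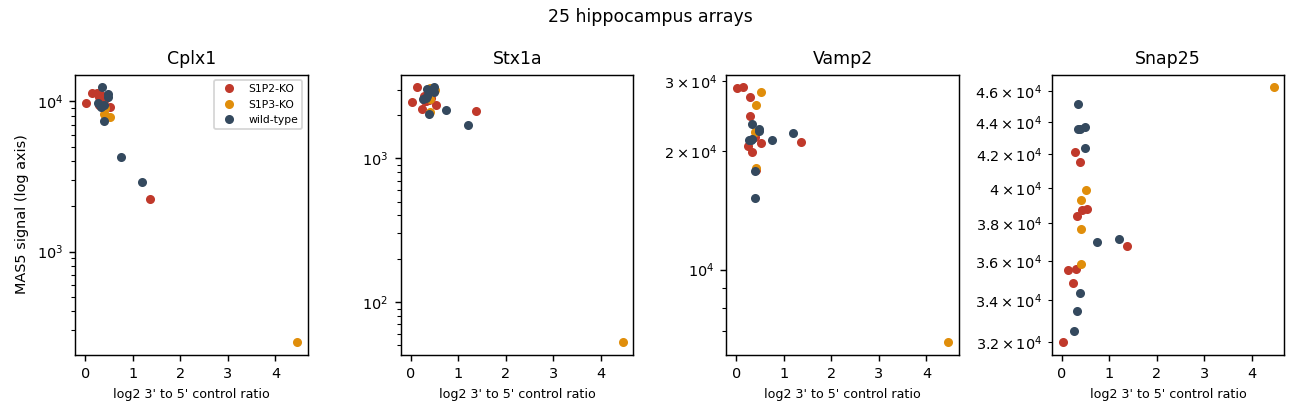
Signal of Cplx1, Stx1a, Vamp2 and Snap25 (vertical, log axes) against the log2 3' to 5' ratio of the control probe sets (horizontal) on the 25 hippocampus arrays. The point at 4.46 is S1P3-KO replicate 5, which read 251 for Cplx1, 53 for Stx1a and 6555 for Vamp2 but 46244 for Snap25, its highest of the 25.

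Nsf, the ATPase that disassembles SNARE complexes, ran from 12632 to 18761 in wild-type hippocampus and from 10311 to 15330 in wild-type neocortex. The difference was 0.29 ± 0.13 with all arrays (limma adjusted p = 0.123) and 0.29 ± 0.08 without S1P3-KO replicate 5 (adjusted p = 0.0099). In S1P2-KO mice it was 0.35 in both fits (limma adjusted p = 0.0566 with that array and 0.00169 without). Cplx2, the other complexin, was at 1500 ± 750 in hippocampus and 2077 ± 284 in neocortex of wild-type mice, a difference of -0.64 ± 0.24 (limma adjusted p = 0.0679, and 0.0437 without that array). It read 397, 513 and 511 on the 3 arrays of highest ratio, in the order given for Cplx1. Napa and Napb, the adaptors of NSF, differed by -0.08 and -0.18 in wild-type mice and did not pass. Napb was lower in hippocampus than in neocortex of S1P3-KO mice, at -0.41 ± 0.14 (limma adjusted p = 0.049) but not without replicate 5 (-0.28, adjusted p = 0.264). For Napb too 2 probe sets passed the filter, and only the brighter is given here. Snapin, which binds SNAP-25, and the syntaxin-binding proteins Stxbp2 and Stxbp3 passed in no genotype.

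Of 9 measured synaptotagmins and synaptotagmin-like genes, Sytl4 being of the latter kind, 1 was higher and 2 lower in wild-type hippocampus. Syt2, a fast calcium sensor, ran from 838 to 1412 in wild-type hippocampus and from 1355 to 2022 in wild-type neocortex, with a narrow overlap, a difference of -0.51 ± 0.11 (limma adjusted p = 0.00064). Its second probe set was lower too (-1.02, limma adjusted p = 0.00488). In S1P2-KO mice Syt2 differed by -0.60 ± 0.11 (limma adjusted p = 5.91e-05) and in S1P3-KO mice by -0.30 ± 0.16 (adjusted p = 0.242). Syt4, whose expression follows neuronal activity, was at 498 ± 198 in hippocampus and 780 ± 247 in neocortex of wild-type mice (-0.65 ± 0.19, limma adjusted p = 0.0125) and passed in neither knockout.

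Syt17 ran from 1015 to 2790 (median 1758) in wild-type hippocampus and from 688 to 1496 (median 1269) in wild-type neocortex, with overlap. It was higher in hippocampus by 0.48 ± 0.16 in S1P2-KO, 0.71 ± 0.22 in S1P3-KO and 0.52 ± 0.16 in wild-type mice (limma adjusted p = 0.0261, 0.0269 and 0.0159). S1P3-KO hippocampus gave 2051.8, 1510.2, 1695.7, 2469.7 and 3234.1, against 1538.8, 1836.4, 1190.3, 883.0 and 1065.4 in S1P3-KO neocortex. The highest of these is replicate 5, without which the S1P3-KO difference did not pass (0.55, limma adjusted p = 0.142). Syt1, the main calcium sensor of fast release in forebrain, ran from 5955 to 8164 in wild-type hippocampus and from 7733 to 10946 in wild-type neocortex. Its difference was -0.30 ± 0.32 with all arrays (limma adjusted p = 0.61) and -0.30 ± 0.11 without S1P3-KO replicate 5 (adjusted p = 0.0524), on which Syt1 read 140.4. In S1P2-KO mice Syt1 was lower in hippocampus without that array (-0.32 ± 0.11, adjusted p = 0.0393, against 0.628 with it). Syt5 was lower in hippocampus of S1P3-KO mice (-0.64 ± 0.13, limma adjusted p = 0.000242). Without that array it passed in every genotype, at -0.21 in S1P2-KO, -0.48 in S1P3-KO and -0.24 in wild-type mice (limma adjusted p = 0.0456, 0.00257 and 0.0186).

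Of the 5 genes grouped here as vesicle proteins, Syn2, Syp, its relatives by name Sypl and Sypl2, and Snap91, 0 passed in any genotype with all arrays. Syn2, a synapsin, ran from 5393 to 8344 (median 7598) in wild-type hippocampus and from 4520 to 6494 (median 5461) in wild-type neocortex. S1P3-KO hippocampus gave 7783.0, 8344.9, 7271.5, 8766.4 and 374.0, against 6497.1, 5284.6, 6437.5, 5344.1 and 5084.6 in S1P3-KO neocortex. All hippocampus arrays but replicate 5 thus lay above all neocortex arrays of that genotype. Without replicate 5 Syn2 was higher in hippocampus by 0.28 ± 0.08 in S1P2-KO, 0.50 ± 0.12 in S1P3-KO and 0.43 ± 0.08 in wild-type mice (limma adjusted p = 0.0119, 0.00473 and 7.87e-05). With it none passed (adjusted p = 0.585, 0.624 and 0.302) and the S1P3-KO value was -0.34. Syp, which encodes the vesicle membrane protein synaptophysin, was at 3440 ± 673 in hippocampus and 3236 ± 521 in neocortex of wild-type mice, and differed by 0.08 (limma adjusted p = 0.713, interval -0.15 to 0.32).

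Of the 5 genes named for Rab3 1 passed in wild-type mice, Rab3ip, the exchange factor for Rab8, and no Rab3 GTPase did. Rab3ip ran from 991 to 1287 in wild-type hippocampus and from 665 to 892 in wild-type neocortex, apart on every array (0.48 ± 0.09, limma adjusted p = 5.97e-05). It differed by 0.42 ± 0.09 in S1P2-KO mice (adjusted p = 0.000434) and by 0.24 ± 0.13 in S1P3-KO mice (adjusted p = 0.228). Its second probe set differed by -0.03 in wild-type mice (adjusted p = 0.935), so the call holds for 1 of 2 probe sets. Rab3a, the main Rab3 of synaptic vesicles, was at 508 ± 272 in hippocampus and 385 ± 150 in neocortex of wild-type mice and did not pass (0.28 ± 0.28, limma adjusted p = 0.587, interval -0.29 to 0.84).

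Of 15 measured SNAREs of other membranes 1 was lower in wild-type hippocampus. Stx4a, a plasma membrane syntaxin of many cell types, was at 1277 ± 164 in hippocampus and 1642 ± 194 in neocortex of wild-type mice (-0.36 ± 0.08, limma adjusted p = 0.000661) and was also lower in hippocampus of S1P2-KO mice (-0.30, adjusted p = 0.0053). Stx3, a syntaxin known from apical membranes and ribbon synapses, was higher in hippocampus of S1P2-KO mice, 456 ± 59.5 against 336 ± 68.5 in neocortex (0.42 ± 0.14, limma adjusted p = 0.0261). In S1P3-KO mice Stx3 read 556.4, 560.5, 420.1, 509.1 and 568.5 in hippocampus and 258.8, 150.1, 346.5, 427.1 and 321.8 in neocortex (0.82 ± 0.19, limma adjusted p = 0.00236), and in wild-type mice it did not pass (0.21, adjusted p = 0.333). For Stx3 2 probe sets passed the filter, and only the brighter is given here. Among the genes taken in by letters alone, Rab33a ran from 784 to 1084 in wild-type hippocampus and from 1033 to 1542 in wild-type neocortex (-0.59 ± 0.09, limma adjusted p = 1.9e-06). It was lower also in hippocampus of S1P2-KO (-0.61 ± 0.09, adjusted p = 9.36e-07) and S1P3-KO mice (-0.46 ± 0.13, adjusted p = 0.0121). Rab34, a Rab of lysosome positioning and cilia, was higher in hippocampus of S1P2-KO mice, 1174 ± 265 against 742 ± 144 in neocortex (0.63 ± 0.12, limma adjusted p = 0.000101). Rab34 was higher in hippocampus of S1P3-KO mice too (0.51 ± 0.17, adjusted p = 0.0454), and in wild-type mice it did not pass (0.33, adjusted p = 0.0618).

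Summed signals of cell markers are given beside the tissue differences, and marker counts between tissues are with all arrays. For 6 neuronal markers other than Snap25 the sum ran from 40763 to 46028 in wild-type hippocampus (median 45055) and from 42347 to 49349 in wild-type neocortex (median 47376). Of 7 neuronal markers measured, Snap25 included, 0 were higher and 2 lower in hippocampus, Nefm and Snap25. Of 5 GABAergic markers 1 was lower, Pvalb (-0.47), a marker of fast-spiking interneurons, and the sum of the 5 ran from 27474 to 34358 in hippocampus and from 29181 to 35055 in neocortex. For 5 oligodendrocyte markers on the array the sum ran from 26601 to 37278 in hippocampus and from 26531 to 32141 in neocortex. Of the 4 that passed the filter 1 was higher, Mbp. For 5 astrocyte markers it ran from 5676 to 10477 in hippocampus and from 4979 to 6961 in neocortex, and 1 was higher, Gfap. For 6 choroid plexus markers on the array it ran from 3912 to 46184 in hippocampus and from 4590 to 8279 in neocortex. Of the 5 that passed the filter 1 was higher, Kl. Of 4 markers of thalamus, a region that borders the hippocampus, Prkcd was higher in hippocampus (0.83 ± 0.12, limma adjusted p = 1.5e-07) and Rora lower (-0.82 ± 0.11, adjusted p = 6.3e-08), and the sum of the 4 ran from 3103 to 4435 in hippocampus and from 2806 to 3777 in neocortex. Of 6 microglial, 4 endothelial, 1 striatal and 1 blood marker measured 0 passed. The part of these cells and regions in the tissue differences was not tested.

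Of 99 other genes of vesicle release and recycling, listed by function, 61 were measured, and 5 were higher and 7 lower in wild-type hippocampus (limma), or 19.7%, beside 14.6% of all probe sets. Of 9 active zone and priming genes 3 were higher and 1 lower. Doc2b, a calcium-binding protein of release, differed by 2.09 ± 0.29 (limma adjusted p = 1.92e-07), Ppfia4, a liprin scaffold, by 0.90 ± 0.11 (adjusted p = 1.14e-08), the scaffold gene Lin7c by 0.59 and its partner Cask by -0.34. Of 17 endocytosis genes 2 were higher, Clta (0.29) and Ap2a2 (0.22), and 1 lower, Ap2m1 (-0.24). Of 14 vesicle transporters and proton pump subunits 2 were lower, Atp6v1h (-0.24) and the vesicular zinc transporter Slc30a3 (-0.60 ± 0.07, limma adjusted p = 7.57e-10). Sncb (-0.42) and Basp1 (-0.25) were lower among 11 other vesicle proteins, and Vti1b (-0.39) among 10 SNAREs and their partners with other names. These genes and counts by function are with all arrays, and some change without S1P3-KO hippocampus replicate 5. In S1P2-KO mice 6 of the 61 were higher in hippocampus and 10 lower (26.2%, beside 14.7%), and in S1P3-KO mice 6 and 4 (16.4%, beside 12%). Without S1P3-KO hippocampus replicate 5 these counts were 7 and 10 in S1P2-KO (27.9%, beside 17.1%), 3 and 2 in S1P3-KO (8.2%, beside 7.92%) and 7 and 9 in wild-type mice (26.2%, beside 17.1%).

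Neither knockout differed from wild-type in any of the 52 genes at the threshold, in either tissue. Of all probe sets 0% passed in S1P2-KO neocortex, S1P2-KO hippocampus and S1P3-KO neocortex and 0.0352% in S1P3-KO hippocampus (limma, 0.0234% higher and 0.0117% lower). At an unadjusted p under 0.05 there were 2 of the 52 genes in S1P2-KO neocortex, 1 in S1P2-KO hippocampus, 7 in S1P3-KO neocortex and 7 in S1P3-KO hippocampus, or 3.85%, 1.92%, 13.5% and 13.5%, beside 8.99%, 5.76%, 10.6% and 9.54% of all genes. Their median log2 differences were -0.03, -0.01, -0.01 and -0.05 in the same order, beside -0.01, -0.01, 0.00 and -0.01 over all genes. Without S1P3-KO hippocampus replicate 5, which enters the shared estimate of the spread, the 1 gene in S1P2-KO hippocampus became 2 (3.85%, beside 7.78% of all genes). Both knockouts were set against the same wild-type arrays. Between S1P2-KO and S1P3-KO 0 of 52 genes passed in either tissue (0% of probe sets, limma), with 4 in neocortex and 10 in hippocampus at an unadjusted p under 0.05 (7.69% and 19.2%, beside 5.92% and 11.8% of all genes). Without S1P3-KO replicate 5 the 10 in hippocampus became 2 (3.85%, beside 6.69%). In a test of whether a knockout's difference from wild-type was unequal in the tissues 0 of 52 passed for either knockout (0% of probe sets, limma interaction), with 0 for S1P2-KO and 2 for S1P3-KO at an unadjusted p under 0.05 (0% and 3.85%, beside 2.43% and 5.24% of all genes).

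**Figure D4:**
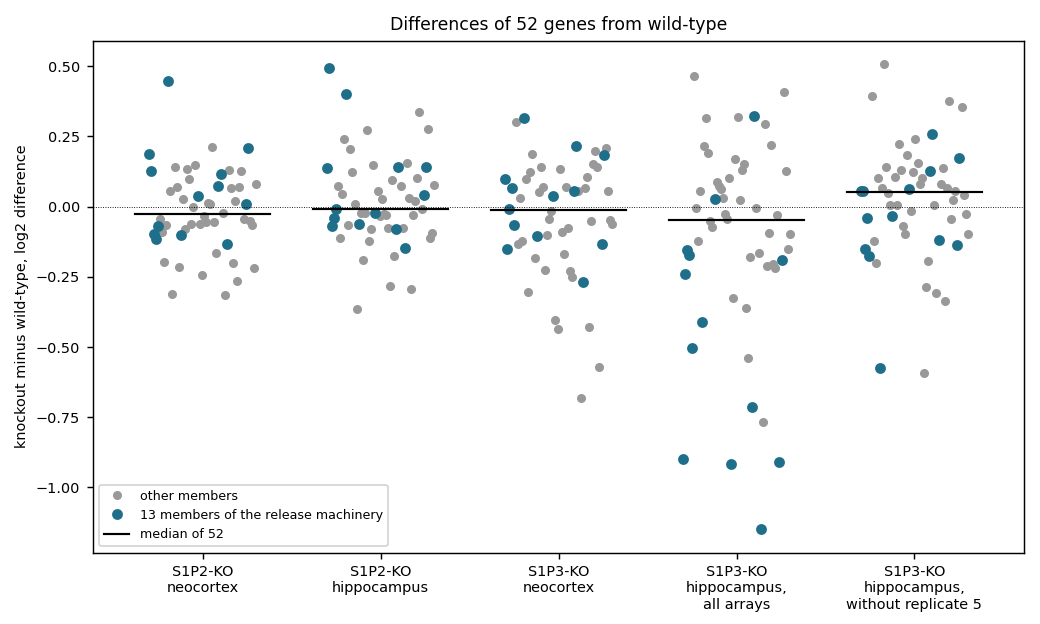
Log2 difference from wild-type (vertical axis) of the 52 genes in each knockout and tissue, the 13 core release genes in blue, with a line at the median. In S1P3-KO hippocampus the core genes reach -1.15 with all arrays, and run from -0.57 to 0.26 without replicate 5.

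In S1P2-KO neocortex the smallest p was that of Vamp2, which ran from 22061 to 30998 (median 24632) in S1P2-KO and from 19999 to 24060 (median 22019) in wild-type, a difference of 0.21 ± 0.06 (limma adjusted p = 0.257). Cplx1 ran from 11975 to 18524 in S1P2-KO and from 11753 to 14667 in wild-type, with overlap (0.19 ± 0.06, limma adjusted p = 0.335). Syt2 differed by -0.20, Syt11 by 0.13 and Rab33b by -0.20, the others among the 5 smallest p. Stx1a differed by 0.04 ± 0.05, with an interval of -0.06 to 0.14, and Snap25 by -0.10 ± 0.07 (-0.24 to 0.03). The 13 core genes ran from -0.13 (Syt1) to 0.45 (Rab3a), with half-widths of the 95% interval between 0.10 and 0.55. In S1P2-KO hippocampus the smallest p was that of Syt2, at 948 ± 176 in S1P2-KO and 1161 ± 162 in wild-type (SD, n = 10 each), which came to -0.29 ± 0.12 (limma adjusted p = 0.809). The mean of all Syt2 probe sets gave 0.07 instead. Next came Rab34 (0.24), the plasma membrane SNARE Snap23 (-0.36), the endosomal SNARE Vamp3 (0.28) and Snapin (-0.12). Core genes there ran from -0.15 (Syt1) to 0.49 (Cplx2), with half-widths of 0.15 to 0.94, and Stx1a differed by -0.02 and Snap25 by -0.06.

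In S1P3-KO neocortex Syt2 again had the smallest p. It read 841.9, 1547.1, 1207.9, 1369.0 and 1316.4 in S1P3-KO and 1355 to 2022 (median 1675) in wild-type. Below the wild-type range lay 3 of the 5, and the difference came to -0.43 ± 0.12 (limma adjusted p = 0.197). Stx2, a plasma membrane syntaxin, differed by -0.40 ± 0.14 (limma adjusted p = 0.313), Rab31, an endosomal Rab, by 0.30 ± 0.11 (adjusted p = 0.339) and Syt5 by 0.20 ± 0.08 (adjusted p = 0.371). Vamp2 read 28636.0, 25722.4, 21298.6, 22902.4 and 27276.6 in S1P3-KO, 3 of them above the wild-type range of 19999 to 24060 (0.18 ± 0.08, limma adjusted p = 0.41). Core genes ran from -0.27 (Syt1) to 0.32 (Rab3a).

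In S1P3-KO hippocampus 11 of the 13 core genes lay below wild-type with all arrays (median -0.41), from -1.15 for Syt1 to 0.32 for Syp. Without replicate 5 they were 6 above and 7 below (median -0.03). None of the 13 passed (smallest limma adjusted p 0.4 with that array and 0.697 without it). Nsf read 15111.7, 14006.5, 16991.5, 11356.9 and 4342.9 in S1P3-KO and 12632 to 18761 in wild-type, a difference of -0.50 ± 0.18 (limma adjusted p = 0.4), and -0.17 ± 0.10 without replicate 5 (adjusted p = 0.697). Rab31 read 1285.4, 1787.6, 1801.8, 1369.4 and 1911.8 in S1P3-KO, 3 of them above the wild-type range of 949 to 1493 (0.47 ± 0.15, limma adjusted p = 0.33, and 0.39 ± 0.16 without replicate 5). The others of the 5 smallest p were Stx4a (0.32), Stxbp2 (-0.54) and Syp (0.32), which without that array differed by 0.24, -0.29 and 0.26. Over all 52 genes without that array 0 passed (0.0234% of probe sets) and the median was 0.05. An unadjusted limma p under 0.05 was found for 4 of them (7.69%, beside 7.81% of all genes). Of the cell markers 1 passed in this comparison, the astrocyte gene Gfap (0.84 ± 0.15, limma adjusted p = 0.0273), and without replicate 5 it did not (0.69 ± 0.13, adjusted p = 0.0578). The other astrocyte markers went both ways with all arrays: Gjb6 (0.43) and S100b (0.13) were above wild-type, and Aqp4 (-1.26) and Slc1a2 (-0.26) below.

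Between the 2 knockouts the smallest p in hippocampus was that of Stxbp2 (0.63 ± 0.21, S1P2-KO minus S1P3-KO, limma adjusted p = 0.27) and in neocortex that of Rab31 (-0.35 ± 0.11, adjusted p = 0.696). Next in hippocampus were Stx4a (-0.29), Nsf (0.49), Rab31 (-0.40) and Stx7 (-0.23), and in neocortex Cplx2 (0.28), Stx2 (0.34), Snap91 (-0.22) and Snapc3 (0.32). Without S1P3-KO replicate 5 Stxbp2 differed by 0.38 in hippocampus and Nsf by 0.17. Of the 61 other release and recycling genes 0 passed in any of the 4 comparisons with wild-type (limma), with medians of 0.02 in S1P2-KO neocortex, -0.01 in S1P2-KO hippocampus, 0.02 in S1P3-KO neocortex and 0.06 in S1P3-KO hippocampus.

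Between the sexes 1 gene passed, Cplx2 in neocortex (1.92% of the 52, beside 0.0586% of probe sets). It was lower in females, at 1844 ± 307 (SD, n = 13), against 2413 ± 290 in males (n = 12), and differed by -0.38 ± 0.08 (limma adjusted p = 0.0425). Females ran from 1361 to 2433 and males from 2006 to 2958, with overlap. The female mean lay below the male mean in each genotype, at 1962 ± 407 and 2637 ± 234 in S1P2-KO (n = 5 each), 1576 ± 155 and 2220 ± 179 in S1P3-KO (n = 3 and 2) and 1887 ± 177 and 2266 ± 245 in wild-type mice (n = 5 each). The call was lost when any 1 of 18 of the 25 arrays was left out. In hippocampus 0 genes passed (limma, 0.0586% of probe sets, and 0 of the 52 at an unadjusted p under 0.05), and Cplx2 differed by -0.43 ± 0.29 (adjusted p = 0.952). Without S1P3-KO replicate 5, 1 of the 52 had an unadjusted p under 0.05 (1.92%, beside 6.17% of all genes) and 0 passed (limma). With all arrays the female mean of Cplx2 was below the male mean in S1P2-KO mice (1623 ± 804 and 2420 ± 248) and S1P3-KO mice (914 ± 557 and 1755 ± 873) and above it in wild-type mice (1583 ± 810 and 1417 ± 771). Without replicate 5, a female, the S1P3-KO females averaged 1173 ± 469 (n = 2).

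**Figure D5:**
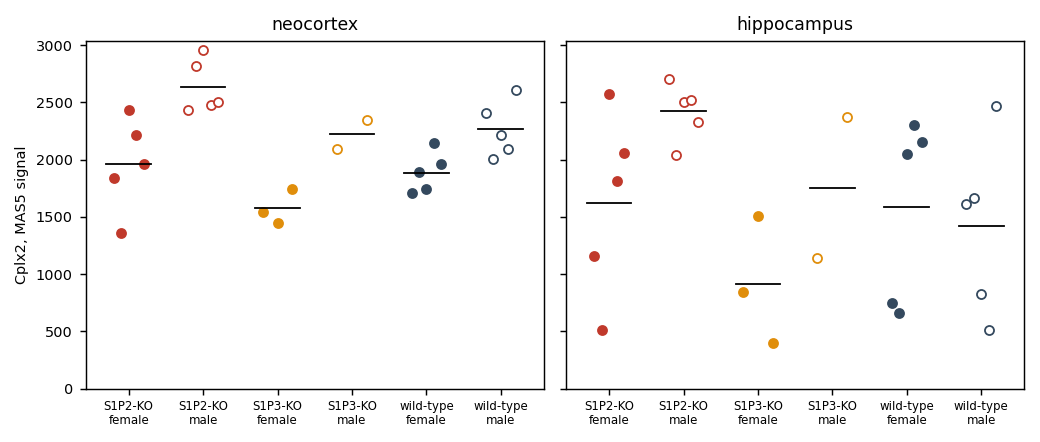
Signal of Cplx2 (vertical axis) by genotype and sex in neocortex and hippocampus, females filled and males open, with lines at the means. In neocortex females average 1844 and males 2413, whereas in hippocampus single arrays spread from 397 to 2702.

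The median coefficient of variation of the 52 genes was 18.6% in S1P2-KO, 28.8% in S1P3-KO and 18.4% in wild-type hippocampus, and 16.9% in S1P2-KO, 17.5% in S1P3-KO and 13.7% in wild-type neocortex. Without replicate 5 that of S1P3-KO hippocampus was 19.0% (n = 4), close to the other hippocampus groups.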

How the data were processed

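Signals of 12488 probe sets on 50 arrays were analysed. The deposited values are linear intensity, made by the authors with MAS5, per the submitters' processing notes (version not given in the sources used here), and 2%-trimmed means of 1000.56 to 1000.66 show that arrays were scaled alike. Values were taken as log2(signal + 30.7), the 10th percentile, and probe sets with a mean above the 30th percentile (signal 132.6) were kept (8534, 6350 genes). Differences are on that scale, which understates changes of dim genes. limma 3.58.1 (R 4.3.3; lmFit, eBayes with trend) was fitted per tissue over the 3 genotypes with sex, and over 50 arrays for tissue differences and interactions, with Benjamini-Hochberg adjustment over all probe sets (threshold 0.05). The number of arrays limits the precision. In simulated data, shifts of 0.4, 0.7 and 1 were recovered for 31.3%, 71.6% and 89.4% of probe sets in S1P2-KO minus wild-type neocortex, and for 20.9%, 62.7% and 87.9% in S1P3-KO minus wild-type hippocampus. The simulated noise was normal, with 1 spread per probe set pooled over all groups. It thus lacked the wider spread of S1P3-KO hippocampus, for which the shares can be too high. The 3 shifts were put on 67, 67 and 66 of the 8534 probe sets at once, which makes the adjusted threshold easier to pass. In the real comparisons with wild-type few or no probe sets passed, so the shares can be too high for both comparisons. Core genes, all genes past the threshold and, between genotypes, the 5 of smallest p were named, and other genes were chosen after their values were seen. Members, lists and tests were chosen with earlier results of these data known. Alternatives were pseudocount, filter, probe set choice, array weights, the 3' to 5' ratio, the replicate number as a block, and leaving out arrays. The replicate numbers are not stated to mark animals, so p-values measure the spread between these arrays.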

Additional observations from a re-analysis of the deposited data

Results flagged for a closer look

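Within groups of 5 or 10 arrays, 132 groups of values of 22 genes, and 6 of the mean level over the 52 genes, were searched for a lowest or highest array far from the rest (Dixon's test), and 14 were found; chance gives about 1 in 20. Of these, 5 are low values on S1P3-KO hippocampus replicate 5, the array of highest 3' to 5' ratio: Cplx1 250.7, Stx1a 52.9, Syn2 374.0, Syt1 140.4 and Vamp1 20.4. On S1P2-KO hippocampus replicate 7, with the next highest ratio, Cplx1 (2256.2) and Cplx2 (513.4) were low. In neocortex the low values were Napa in S1P3-KO replicate 2 (6703.4), Napb in S1P2-KO replicate 6 (1698.7), Syt4 in S1P2-KO replicate 9 (269.4), Stx3 in wild-type replicate 6 (254.8) and Syt17 in wild-type replicate 7 (688.1). The high values in neocortex were Syn2 in S1P2-KO replicate 9 (8047.0) and Syt1 in S1P3-KO replicate 2 (9683.2).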

How the results depend on the processing

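The difference of Stx1a between hippocampus and neocortex kept its sign in each of 63 settings, from -1.83 to -1.64 in S1P2-KO, -2.99 to -1.63 in S1P3-KO and -1.77 to -1.59 in wild-type mice. The count of genes that passed between tissues in wild-type mice, 8, was 13 with array weights, 14 with the 3' to 5' ratio as covariate and 15 with only the groups compared, and 8 to 13 on leaving out single arrays (13 without S1P3-KO hippocampus replicate 5). In S1P2-KO mice it was 7 (without S1P2-KO neocortex replicate 6) to 14 (without S1P3-KO hippocampus replicate 5), beside 9. In S1P3-KO mice, beside 9, it was 4 with array weights, 1 with only the groups compared, and 5 (without S1P3-KO neocortex replicate 4) to 11 (without S1P3-KO hippocampus replicate 2). The sex call in neocortex became 0 with a filter at the pooled median and with the 3' to 5' covariate, and 0 to 1 on leaving out arrays. Counts between genotypes were 0 in all settings except S1P2-KO minus S1P3-KO in hippocampus, 0 to 1 on leaving out arrays (1 without S1P3-KO hippocampus replicate 1). The S1P3-KO tissue difference changed sign for Nsf (-0.15) to 0.10 with array weights, 0.23 with the covariate and 0.18 without the 3 arrays of high ratio or replicate 5 alone, and for Syn2 (-0.34) to 0.43, 0.59 and 0.50. Over single arrays left out, those values ran from -0.309 (without S1P3-KO hippocampus replicate 3) to 0.181 for Nsf and from -0.608 (without S1P3-KO hippocampus replicate 4) to 0.502 for Syn2. Syt2 in S1P2-KO minus wild-type hippocampus turned to 0.067 with the mean of all probe sets, and Syt5 in S1P3-KO minus wild-type neocortex to -0.069 with the replicate block. The causes were not tested. Same-numbered neocortex and hippocampus arrays correlated between -0.068 and 0.26 in their deviations from group means. The median was 0.153 in S1P2-KO mice (other pairs -0.032), 0.103 in wild-type mice (-0.013) and 0.03 in S1P3-KO mice (-0.008). In the same order 9 of 10, 6 of 10 and 2 of 5 pairs exceeded 0.1. The labels do not state pairs, so the main fits left the arrays unpaired, and whether a pair came from 1 animal is not known. With the replicate block the tissue counts were 10 in S1P2-KO, 11 in S1P3-KO and 10 in wild-type mice, and 0 between genotypes.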
